A study of Mus musculus with 78 samples.

Results

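Lif, Lifr, Il6st, Jak1, Stat3 and Socs3, the core genes of LIF signalling in mouse embryonic stem cells (mESCs), were followed after degradation of TRIM28, a co-repressor that keeps endogenous retroviruses (ERVs) silent. They were picked by gene name, as 6 of the 54446 gene identifiers in the RNA-seq tables and 6 of the 54435 in the TT-SLAM-seq table, and all 6 passed the filter on low values in every comparison. LIF (leukemia inhibitory factor) is a cytokine of the IL-6 family that binds a receptor made of LIFR and the shared signalling chain gp130, which is encoded by Il6st. Receptor-bound Janus kinases, mainly JAK1, then phosphorylate STAT3, which enters the nucleus and activates genes that hold mESCs in the naive pluripotent state. SOCS3, itself encoded by a STAT3 target gene, blocks the kinase and the receptor and so limits the signal.

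The tagged line was a clone of V6.5 mESCs, a hybrid male mESC line, in which mRuby2-P2A-FKBP had been knocked in at the N-terminus of TRIM28, so that the small molecule dTAG-13 sends the protein for degradation. RNA-seq of this line covered DMSO and 2, 6, 24 and 96 h of 500 nM dTAG-13, and TT-SLAM-seq, which reads RNA made during a 15 min pulse of 500 µM 4-thiouridine, covered DMSO and 2, 6 and 24 h, with 3 libraries per group. A second degron line (shREPEATS in the labels, called the hairpin line here) carried hairpins against ERV RNA under doxycycline (Dox) control and was sampled in DMSO, in dTAG-13 and in dTAG-13 with 2 µg/mL Dox, 3 libraries each. Untreated parental V6.5 mESCs and V6.5 neural progenitor cells (NPCs) in DMSO gave 3 RNA-seq libraries each, and H3K27Ac and H3K9me3 (3 libraries per group), RNAPII and MED23 (2 per group) were mapped by ChIP–seq in control and 24 h dTAG-13 cells of the tagged line.

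The tagged mESCs were taken off their feeder fibroblasts and kept in serum with 2000 U/mL LIF, so the cytokine was supplied in all of those groups, whereas the NPC medium named no LIF and the hairpin and parental lines were described on feeders with a LIF dose that could not be read. The dTAG-13 was added in medium 2, 6, 24 or 96 h before collection and the RNA-seq control received DMSO medium 24 h before, so that time since fresh medium and time of dTAG-13 cannot be told apart at 2 and 6 h. Per the labels all 3 groups of the hairpin line received Dox beforehand, whereas the study's methods give Dox to 1 group, and this line was sequenced as total RNA rather than mRNA. The study calls its TT-SLAM-seq, RNA-seq and total RNA-seq replicates biological, but no source used here says whether they were separate cultures, and p-values measure the spread between these libraries.

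The promoters of Lif, Stat3 and Socs3 are printed because these are the ligand, the signal carrier and the STAT3 target of the pathway, and because the ChIP–seq peaks described later lie at the Stat3 and Socs3 starts and not at the Lif start. Each run holds the 250 bases before and 50 after the RefSeq start site on GRCm38.p6, read 5′ to 3′ on the strand of the gene, with any match to TTCNNNGAA, the core of STAT binding motifs and its own reverse complement, in capitals. The Lif promoter is at chr11:4257318-4257617 (+), that of Stat3 at chr11:100939491-100939790 (-) and that of Socs3 at chr11:117969317-117969616 (-), the last lying inside the longer gene model of the deposited tables.
Lif: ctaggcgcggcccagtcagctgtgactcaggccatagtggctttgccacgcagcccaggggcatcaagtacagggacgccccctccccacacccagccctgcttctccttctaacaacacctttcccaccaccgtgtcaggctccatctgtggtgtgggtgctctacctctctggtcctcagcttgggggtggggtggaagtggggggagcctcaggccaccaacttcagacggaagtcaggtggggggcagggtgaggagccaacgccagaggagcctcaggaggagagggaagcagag
Stat3: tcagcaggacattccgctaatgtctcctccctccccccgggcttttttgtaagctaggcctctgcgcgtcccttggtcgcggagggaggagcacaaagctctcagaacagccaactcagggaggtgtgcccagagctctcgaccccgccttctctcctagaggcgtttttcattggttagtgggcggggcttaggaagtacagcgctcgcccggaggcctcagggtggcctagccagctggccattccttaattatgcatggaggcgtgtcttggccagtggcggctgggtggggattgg
Socs3: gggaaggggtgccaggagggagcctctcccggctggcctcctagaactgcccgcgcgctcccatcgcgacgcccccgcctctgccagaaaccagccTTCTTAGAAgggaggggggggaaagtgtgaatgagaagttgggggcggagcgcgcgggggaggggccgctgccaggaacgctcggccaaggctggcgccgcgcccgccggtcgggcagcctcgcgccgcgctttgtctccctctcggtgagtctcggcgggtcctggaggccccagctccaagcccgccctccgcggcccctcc
Of the 7 promoters of the 6 genes (Lifr has 2), Socs3 alone held the motif, with 1 copy that begins 154 bases before the start site. Among all 32851 promoters of the same 300 bases, 8.3% held it. The share of G and C was 63.7% for Lif, 60.7% for Stat3 and 73.3% for Socs3, and 81.3% and 53.3% for the Lifr promoters. Over all promoters the median was 52.7% and the upper quartile 61.7%.

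Scaling totals of the TT-SLAM-seq libraries ranged from 6481999 reads (24 h, replicate 3) to 24266191 (24 h, replicate 1), and relative depth of the RNA-seq libraries from 0.279 to 1.51 of the median library, the lowest being the 24 h replicate 1. Trim28 mRNA, which the degron does not target, was higher in parental mESCs than in the tagged line in DMSO (log2 difference 1.16, limma adjusted p = 5.64e-10). In the hairpin line it fell by 0.39 with dTAG-13 (adjusted p = 3.15e-05) and rose by 0.46 when Dox was added (adjusted p = 1.09e-05). In the time course it fell by 0.74 on the log2 scale at 24 h (adjusted p = 2.69e-08) and by 1.70 at 96 h (adjusted p = 7.36e-13). The summed level of 8 mESC markers, all at 1 TPM or more in every mESC library, was 4907 to 5329 TPM in DMSO, 3314 to 3664 TPM at 24 h and 413 to 487 TPM at 96 h. Mean Nanog went the other way at 24 h, from 136 to 199 TPM, while the other mESC markers were below their DMSO means. Of 12 feeder fibroblast markers, 6 or 7 were at 1 TPM or more in DMSO, with a sum of 35.5 to 36.2 TPM, and 11 at 96 h, with a sum of 328 to 355 TPM, led by Col1a1 at 183 TPM. In such bulk samples a change in the share of a cell type and a change in RNA per cell cannot be told apart.

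In nascent RNA, Socs3 was called from 2 h and Jak1 from 6 h. At 2 h of dTAG-13 only Socs3 of the 6 members was called by limma at adjusted p below 0.05, where 3.55% of 13357 tested genes were called. In the fit of recovered reads Lifr and Jak1 were called too (0.35, adjusted p = 0.0164 and 0.32, adjusted p = 0.0454). At 6 h Socs3 and Jak1 were called (2 of 6, where 9.09% of genes were), and at 24 h Jak1, Il6st and Lif (3 of 6, where 37.9% were). All of these calls were increases, where 1.58%, 7.82% and 32.3% of genes were called higher at 2, 6 and 24 h. With the more than 2-fold limit added, Socs3 at 2 h was the single member left, where 0.225% of genes passed.

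In total mRNA the large changes came at 96 h. Called members numbered 2 at 2 h (Socs3 and Il6st higher, where 15.3% of 17922 genes were called), 2 at 6 h (Socs3 higher and Stat3 lower, where 33.9% were) and 5 at 24 h (Jak1 and Il6st higher, Lifr, Stat3 and Socs3 lower, where 67.9% were). At 96 h 5 members were called and all 5 were higher, with Lifr the exception, where 80.3% of genes were called and 42.9% were called higher. More than 2-fold changes at 96 h were seen for Lif, Il6st and Jak1, where 32.7% of genes passed. Against 24 h, all 6 members were higher at 96 h, where 79.4% of genes were called and 37.4% were called higher. The share of members called at 24 and 96 h was thus near that of all genes, while the share called higher at 96 h was above it.

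**Figure D1:**
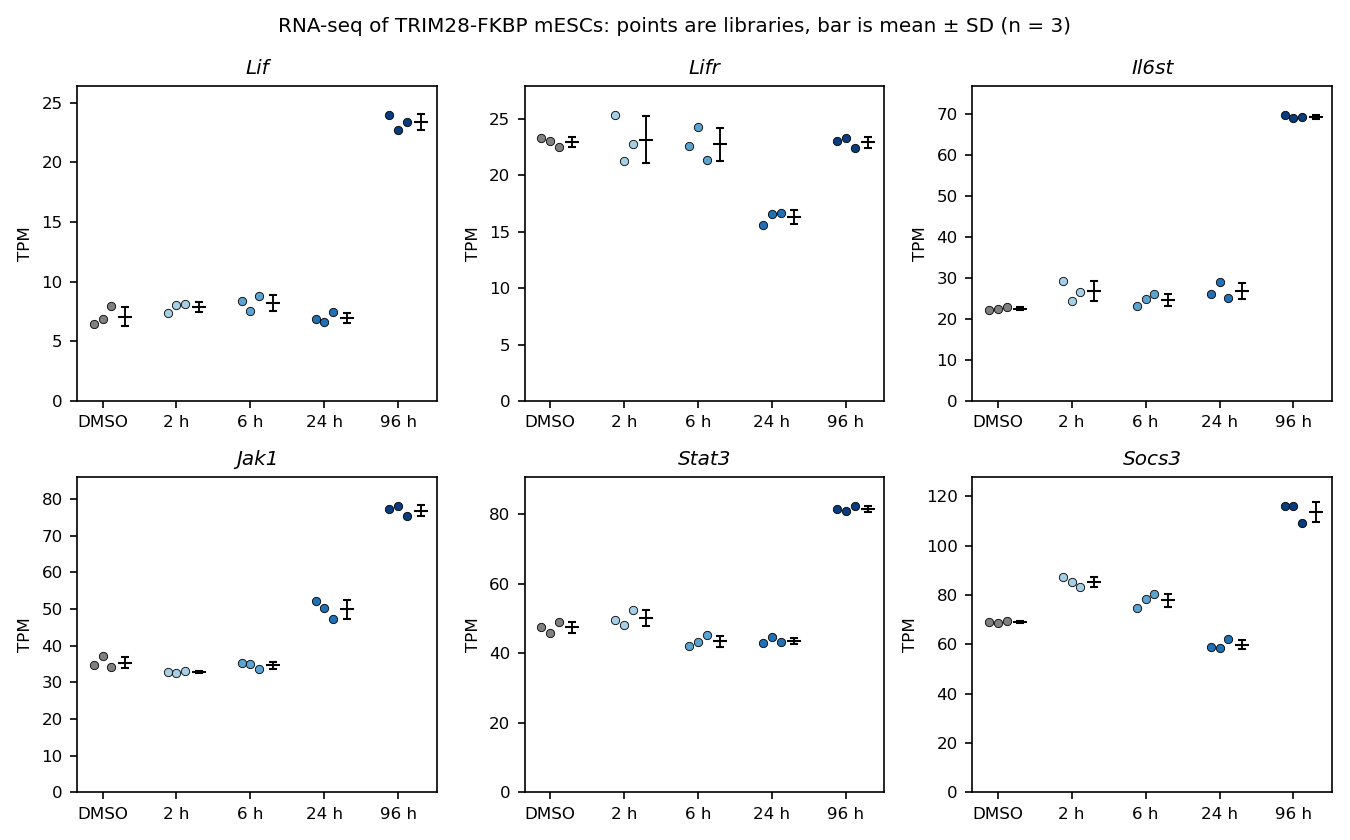
RNA-seq level in TPM of the 6 members in each library of the tagged line by time of dTAG-13, with points for libraries and bars for mean ± SD (n = 3). All members but Lifr reach their highest level at 96 h, while Lifr dips to 15.6 to 16.7 TPM at 24 h and is back at 22.4 to 23.3 TPM at 96 h.

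Lif (ENSMUSG00000034394.14, chr11:4257557-4272514, + strand) encodes the cytokine itself. Its mRNA stood at 6.43, 6.85 and 7.92 TPM in DMSO, the lowest of the members, and at 6.83, 6.65 and 7.46 TPM at 24 h, ranges that overlap. At 96 h the libraries were at 24.0, 22.7 and 23.4 TPM, all above every earlier library. The rise against DMSO was 3.16-fold on the log2(TPM + 0.5) scale (log2 difference 1.66, SE 0.08, adjusted p = 7.96e-11), whereas the 24 h difference was -0.01 (95% CI -0.18 to 0.16, adjusted p = 0.899). With each library centred on its median, which removed a shift of 0.29 at 24 h and 0.28 at 96 h, Lif was lower at 24 h (-0.30, adjusted p = 0.00406) and still higher at 96 h.

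Newly made Lif RNA was at 0.880, 0.722 and 0.709 FPKM in DMSO and at 0.995, 0.938 and 1.03 FPKM at 24 h. The groups did not overlap, and the log2 difference was 0.23 (SE 0.08, adjusted p = 0.0405). These values rest on 96 to 361 recovered reads per library. The call was lost without DMSO replicate 2 or 3 or 24 h replicate 1, 2 or 3 (adjusted p = 0.0702 to 0.121), with libraries centred (-0.01, adjusted p = 0.936) and in the fit of recovered reads (0.07, adjusted p = 0.764). At 2 and 6 h the differences were -0.12 (adjusted p = 0.410) and -0.17 (adjusted p = 0.207), with overlapping groups.

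In the hairpin line Lif was at 11.5, 13 and 12.4 TPM in DMSO, at 18.1, 15.9 and 18.3 TPM in dTAG-13 and at 11.9, 13 and 11.7 TPM in dTAG-13 with Dox. Every dTAG-13 library was above every library of the other groups. Lif rose by 0.49 with dTAG-13 (SE 0.07, adjusted p = 0.000154) and fell by 0.50 when Dox was added (SE 0.07, adjusted p = 0.000169). In parental mESCs it was at 2.00 to 2.49 TPM, a log2 difference of -1.43 from the tagged line in DMSO (adjusted p = 3.30e-06), and in NPCs at 0.234 to 0.358 TPM.

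Lifr (ENSMUSG00000054263.12, chr15:7090614-7197489, + strand) encodes the ligand-specific receptor chain. It was at 23.3, 23.1 and 22.5 TPM in DMSO and at 15.6, 16.6 and 16.7 TPM at 24 h, with no overlap. This fall of 0.48 on the log2 scale (SE 0.06, adjusted p = 7.65e-06) was the largest decrease of any member in the time course. At 96 h Lifr was back at 23.1, 23.3 and 22.4 TPM, a difference from DMSO of -0.00 (95% CI -0.13 to 0.13, adjusted p = 0.968) that became -0.28 with libraries centred (adjusted p = 0.000433).

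New Lifr RNA was at 0.799, 0.699 and 0.736 FPKM in DMSO, 0.958, 0.921 and 0.848 FPKM at 2 h and 0.652, 0.688 and 0.608 FPKM at 24 h. It lay above the DMSO range at 2 h and below it at 24 h, but neither difference passed the test (0.18, adjusted p = 0.109 and -0.12, adjusted p = 0.138). Both passed with libraries centred (0.22, adjusted p = 0.0458 and -0.36, adjusted p = 0.00148) and in the fit of recovered reads (0.35, adjusted p = 0.0164 and -0.49, adjusted p = 0.000347). In the hairpin line Lifr was at 16.1 to 17.6 TPM in DMSO and 15.1 to 17.3 TPM in dTAG-13, and at 18.1 to 19.3 TPM with Dox. The Dox difference of 0.17 was called (adjusted p = 0.0396), but not without dTAG-13 replicate 1 or 2 or without Dox replicate 1, 2 or 3 (adjusted p = 0.0554 to 0.150). Parental mESCs were at 25.7 to 29.3 TPM, a difference of 0.23 (adjusted p = 0.0175) that was lost without DMSO replicate 3 or parental replicate 1 (adjusted p = 0.0510 and 0.0682).

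Il6st (ENSMUSG00000021756.12, chr13:112464070-112510086, + strand) encodes gp130, the signalling chain shared by the IL-6 family. It was at 22.2, 22.3 and 22.9 TPM in DMSO, and at 69.8, 68.9 and 69.1 TPM at 96 h. The rise was 3.04-fold (log2 difference 1.60, SE 0.07, adjusted p = 1.27e-11). The libraries at 24 h, at 26.1, 29.0 and 25.2 TPM, were all above DMSO, and the difference of 0.24 was called (adjusted p = 0.00426), but it was -0.04 with libraries centred (adjusted p = 0.523).

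At 2 h Il6st mRNA stood at 29.3, 24.4 and 26.5 TPM, and the difference of 0.24 (adjusted p = 0.0230) was lost without DMSO replicate 1 or 2 or 2 h replicate 1 or 3 (adjusted p = 0.0576 to 0.0977). Its new RNA was at 1.67, 1.68 and 1.76 FPKM in DMSO and at 2.24, 2.73 and 2.33 FPKM at 24 h, with no overlap. That difference of 0.41 (SE 0.12, adjusted p = 0.0247) was lost without DMSO replicate 1 or 2 or 24 h replicate 2 (adjusted p = 0.0649 to 0.0957) and with libraries centred (0.17, adjusted p = 0.236). In the hairpin line Il6st was at 20.1 to 25.6 TPM in DMSO and at 25.8 to 28.3 TPM in dTAG-13 (0.23, adjusted p = 0.0284), a call lost without DMSO replicate 1 or dTAG-13 replicate 1 or 3 (adjusted p = 0.0693 to 0.0897).

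Jak1 (ENSMUSG00000028530.14, chr4:101152367-101265282, - strand) encodes the kinase bound to gp130. Its new RNA was at 0.383, 0.420 and 0.457 FPKM in DMSO, 0.633, 0.630 and 0.623 FPKM at 6 h and 0.962, 1.02 and 0.960 FPKM at 24 h. The groups at 6 and 24 h lay wholly above the groups before them. The log2 difference was 0.30 at 6 h (SE 0.06, adjusted p = 0.0247) and 0.69 at 24 h (SE 0.06, adjusted p = 7.61e-05), the only 1 of the 3 calls at 24 h that held with libraries centred and in the fit of recovered reads. The 6 h call was lost without DMSO replicate 1 or 2 or 6 h replicate 1, 2 or 3 (adjusted p = 0.0568 to 0.0906) and with libraries centred (0.23, adjusted p = 0.0540).

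Jak1 mRNA followed later. It was at 34.8, 37.1 and 34.2 TPM in DMSO, 35.4, 34.9 and 33.6 TPM at 6 h, 52.2, 50.4 and 47.2 TPM at 24 h and 77.2, 78.1 and 75.4 TPM at 96 h. The 6 h libraries overlapped DMSO, and the later groups did not. The log2 differences were 0.49 at 24 h (SE 0.04, adjusted p = 1.69e-07) and 1.11 at 96 h (SE 0.04, adjusted p = 6.22e-12). The hairpin line gave 32.9, 36.2 and 38.1 TPM in DMSO, 47.5, 45.7 and 48.8 TPM in dTAG-13 and 39.1, 39.5 and 40.8 TPM with Dox. The Dox libraries lay between the other groups. Jak1 rose by 0.40 with dTAG-13 (adjusted p = 9.10e-05) and fell by 0.25 when Dox was added (SE 0.06, adjusted p = 0.00345).

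Stat3 (ENSMUSG00000004040.16, chr11:100885098-100939540, - strand) encodes the transcription factor of the pathway. It was at 47.6, 45.9 and 49.0 TPM in DMSO, 43.0, 44.6 and 43.2 TPM at 24 h and 81.5, 80.9 and 82.4 TPM at 96 h. It was slightly below DMSO at 24 h and far above it at 96 h. The 24 h difference was -0.12 (SE 0.04, adjusted p = 0.0157, and 0.0660 without DMSO replicate 3) and the 96 h difference 0.77 (SE 0.04, adjusted p = 2.04e-10). A like difference of -0.12 at 6 h (adjusted p = 0.0301) was lost without DMSO replicate 1 or 3 or 6 h replicate 1 or 2 (adjusted p = 0.0602 to 0.104).

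New Stat3 RNA was at 1.15, 0.968 and 0.945 FPKM in DMSO and at 1.21, 1.40 and 1.19 FPKM at 24 h, a difference of 0.22 that did not pass (95% CI 0.01 to 0.42, adjusted p = 0.0962) and was -0.03 with libraries centred. In the hairpin line Stat3 was lower throughout, at 29.8 to 33.0 TPM in DMSO, 33.1 to 36.5 TPM in dTAG-13 and 33.0 to 35.8 TPM with Dox, and neither difference passed (adjusted p = 0.0922 and 0.867). The parental line, at 74.6 to 81.0 TPM, was well above the tagged line in DMSO (0.72, adjusted p = 8.66e-07).

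Socs3 (ENSMUSG00000053113.3, chr11:117966079-117970047, - strand) encodes the feedback inhibitor, and its promoter holds the STAT motif printed above. Its new RNA was at 6.67, 5.90 and 7.09 FPKM in DMSO, 17.0, 16.8 and 18.4 FPKM at 2 h, 9.63, 10.8 and 11.2 FPKM at 6 h and 8.08, 7.22 and 9.95 FPKM at 24 h. It was highest at 2 h, and the later groups overlapped each other, with all treated libraries above DMSO. The 2 h rise was 2.54-fold on the log2(FPKM + 0.5) scale (log2 difference 1.35, SE 0.12, adjusted p = 0.00277) and was called with each library left out in turn. Whether it came with dTAG-13 or with fresh medium cannot be told apart at 2 h. The 6 h difference of 0.65 (SE 0.12, adjusted p = 0.0164) was lost without DMSO replicate 1 or 2 or 6 h replicate 1 or 3 (adjusted p = 0.0540 to 0.0694). The 24 h difference of 0.33 did not pass (adjusted p = 0.0616). It passed without 24 h replicate 2 (adjusted p = 0.0380) and with the replicate block (adjusted p = 0.0343), and was 0.09 with libraries centred (adjusted p = 0.650) and 0.01 in the fit of recovered reads (adjusted p = 0.965).

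**Figure D2:**
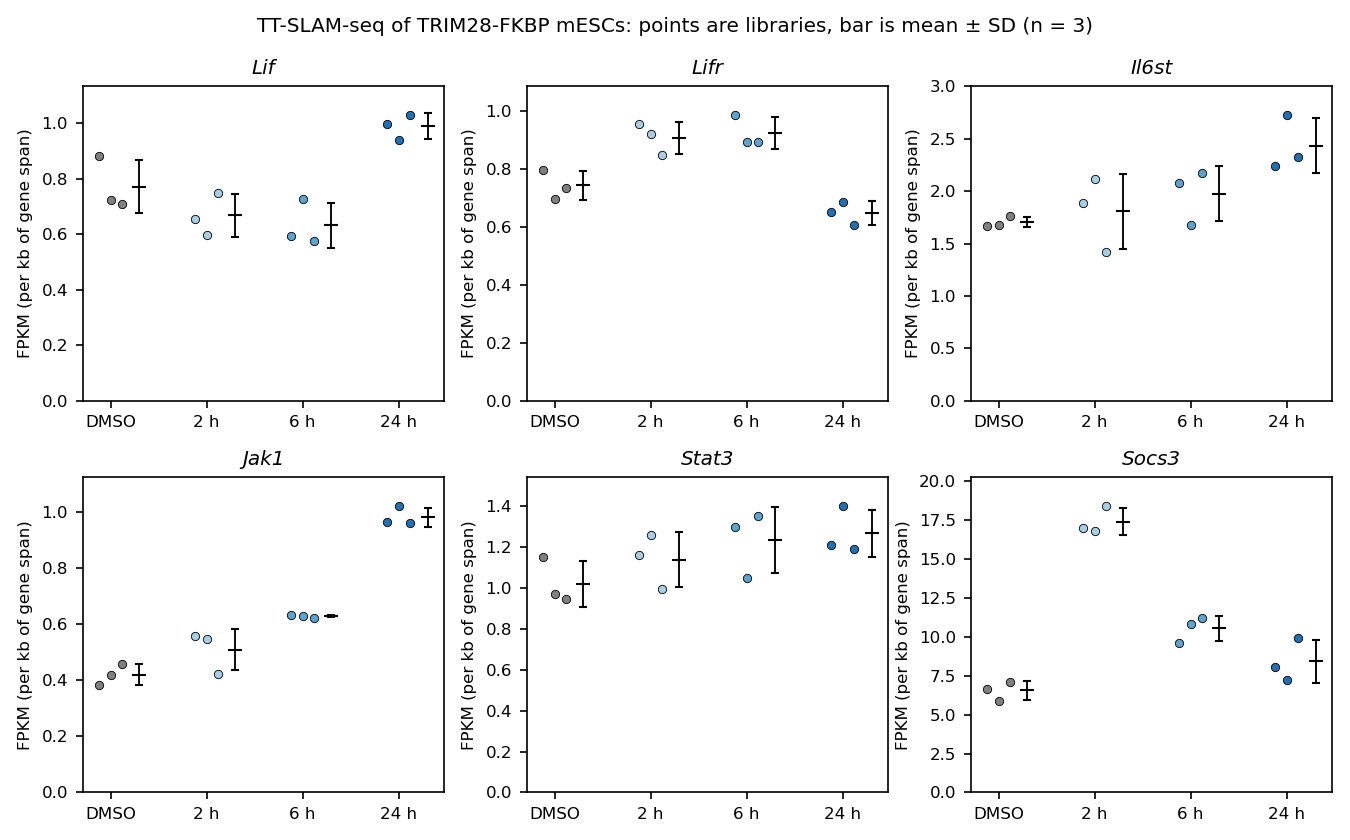
TT-SLAM-seq level in FPKM per kb of gene span of the 6 members in each library by time of dTAG-13, with points for libraries and bars for mean ± SD (n = 3). Socs3 peaks at 16.8 to 18.4 FPKM at 2 h, while Jak1 is highest at 24 h, at 0.960 to 1.02 FPKM.

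Socs3 mRNA moved in the same order but less. It was at 69.1, 68.7 and 69.4 TPM in DMSO, 87.2, 85.4 and 83.1 TPM at 2 h, 74.9, 78.2 and 80.3 TPM at 6 h and 59.1, 58.6 and 62.0 TPM at 24 h. The 2 h and 6 h groups lay above DMSO and the 24 h group below it. The log2 differences were 0.30 at 2 h (SE 0.04, adjusted p = 0.000166), 0.17 at 6 h (SE 0.04, adjusted p = 0.00355, and 0.08 with adjusted p = 0.0907 when libraries were centred) and -0.20 at 24 h (SE 0.04, adjusted p = 0.000237). At 96 h Socs3 was at 116, 116 and 109 TPM, a difference of 0.71 (SE 0.04, adjusted p = 2.03e-10).

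The 96 h increases of Lif, Il6st, Jak1, Stat3 and Socs3 stood beside the fall of the mESC markers and the rise of the fibroblast markers given above. Of 12 markers of extraembryonic endoderm, 9 were at 1 TPM or more at 96 h and 9 or 10 in DMSO, with a sum of 794 to 815 TPM against 197 to 218 TPM. The sum at 96 h was carried by the basement membrane genes Col4a1 (265 TPM), Lamb1 (236 TPM) and Col4a2 (218 TPM). Sox17 went from 0.853 to 22.9 TPM, Dab2 from 9.6 to 39.5 TPM and Gata6 from 1.41 to 7.25 TPM. Gata4 and Foxa2 were also above their DMSO means. Lama1 went from 12.7 to 4.64 TPM, and Amn, Cubn and Sox7 were below their DMSO means. The part of other cell types in these increases was not tested.

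**Figure D3:**
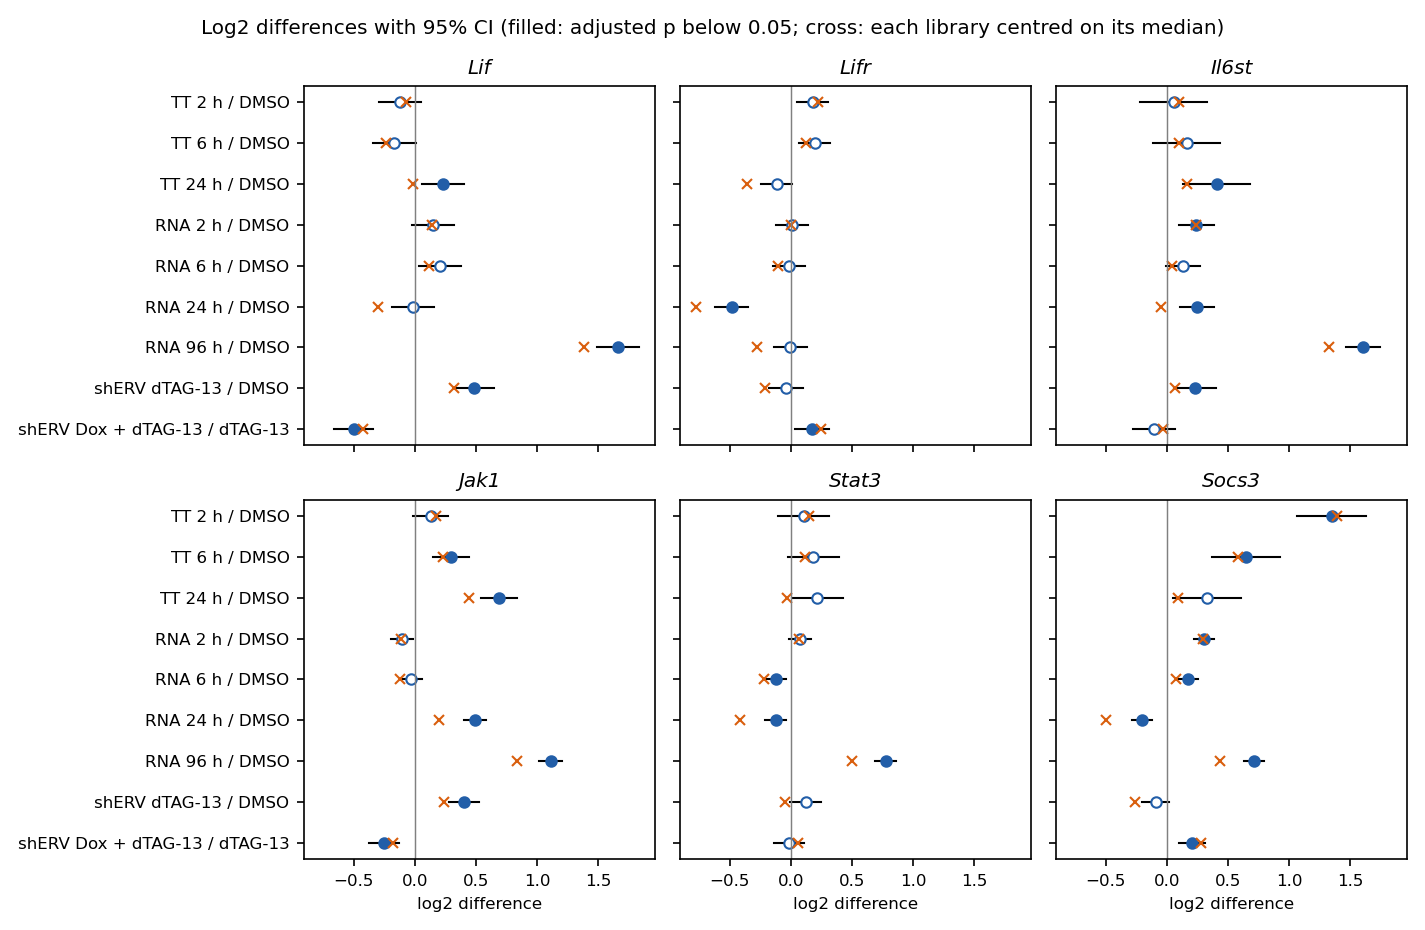
Log2 differences of the 6 members with 95% CI in 9 comparisons, where filled points have adjusted p below 0.05 and crosses show the difference with each library centred on its median. Centring moves every value of a comparison by the same amount, and it moves the 24 and 96 h RNA-seq values by 0.29 and 0.28.

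In the hairpin line with dTAG-13, Lif, Il6st and Jak1 were called, all higher (3 of 6, where 54.0% of 16166 genes were called and 41.2% were called higher). With libraries centred Il6st was no longer called (0.06, adjusted p = 0.331), and Lifr (-0.21, adjusted p = 0.00320) and Socs3 (-0.26, adjusted p = 0.000519) were called lower. When Dox was added to dTAG-13, Lif and Jak1 were lower and Lifr and Socs3 higher (4 of 6, where 46.8% were called). Between dTAG-13 with Dox and DMSO limma called none of the 6 by adjusted p, where 0.0619% of genes were called. At an unadjusted p under 0.05 it called 2 members, Socs3 and Jak1. The share of all genes at that unadjusted limit was not counted, so these 2 cannot be set against a background. The summed mESC markers were at 2429 to 2802 TPM in DMSO, 1258 to 1283 TPM in dTAG-13 and 2679 to 2728 TPM with Dox, and the 12 fibroblast markers at 130 to 152 TPM over the 9 libraries. The 12 endoderm markers summed to 376 to 417 TPM in DMSO, 464 to 513 TPM in dTAG-13 and 413 to 415 TPM with Dox, with 7, 8 and 7 or 8 of them at 1 TPM or more. The part of cell types in these differences was not tested. Socs3 was at 34.6, 36.7 and 37.7 TPM in DMSO, 32.7, 35.0 and 34.4 TPM in dTAG-13 and 38.3, 40.2 and 39.3 TPM with Dox. The last group lay above the other groups, a difference from dTAG-13 alone of 0.21 (SE 0.05, adjusted p = 0.00482).

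The 24 h effect of dTAG-13 differed between the lines for 3 members, by a test of the difference itself that called 51.4% of 17653 genes. The effect in the hairpin line minus that in the time course was 0.50 for Lif (SE 0.12, adjusted p = 0.00459), 0.44 for Lifr (SE 0.09, adjusted p = 0.000958) and 0.24 for Stat3 (SE 0.07, adjusted p = 0.0150). For Il6st it was -0.02 (95% CI -0.27 to 0.24), for Socs3 0.11 (95% CI -0.03 to 0.25, and called at 0.23 with adjusted p = 0.00378 when libraries were centred) and for Jak1 -0.09 (95% CI -0.27 to 0.10). Cell line, library type, feeders, LIF supply and, per the labels, Dox cannot be told apart in this contrast.

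**Figure D4:**
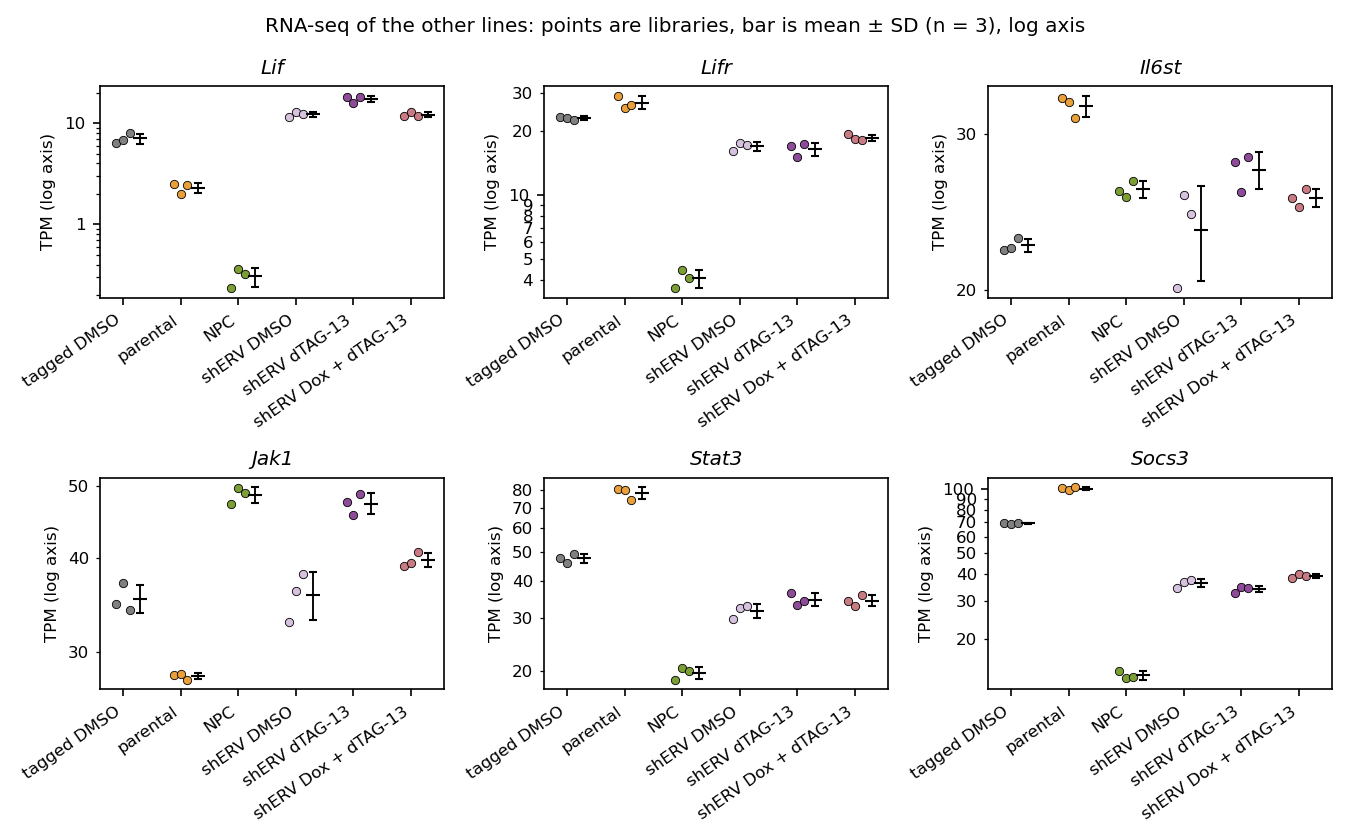
RNA-seq level in TPM on a log axis of the 6 members in the tagged line in DMSO, parental mESCs, NPCs and the 3 groups of the hairpin line (shERV), with points for libraries and bars for mean ± SD (n = 3). NPCs have the lowest Lif, Lifr, Stat3 and Socs3, and Lif in the hairpin line is highest with dTAG-13.

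Both other cell types differed from the tagged line in every member. Against the tagged line in DMSO all 6 were called in parental mESCs (where 66.0% of 17458 genes were called) and all 6 in NPCs (where 89.0% were). Parental mESCs had more Socs3, at 101, 98.9 and 102 TPM (0.54, adjusted p = 6.90e-07), more Stat3, Il6st (0.51, adjusted p = 1.01e-06) and Lifr, and less Lif and Jak1 (-0.34, adjusted p = 3.12e-05). The parental line had never been tagged and was grown apart from it, and its 12 fibroblast markers summed to 118 to 120 TPM and its 8 mESC markers to 6581 to 6682 TPM. Clone, culture and tag cannot be told apart.

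NPCs, which carried all 8 neural progenitor markers at 1 TPM or more, and 2 of 8 mESC markers, had low levels of most members. Socs3 was at 14.1, 13 and 13.2 TPM, a difference of -2.32 (SE 0.03, adjusted p = 5.47e-12). Lifr was at 3.65, 4.45 and 4.05 TPM (-2.37, SE 0.07, adjusted p = 6.83e-10), Stat3 at 18.7, 20.5 and 20.0 TPM (-1.25, SE 0.05, adjusted p = 2.78e-09) and Lif under 0.4 TPM (-3.23, SE 0.11, adjusted p = 1.69e-09). Jak1 (0.45, adjusted p = 1.05e-06) and Il6st (0.21, adjusted p = 0.000230) were higher, but centring, which here took out a shift of 0.40, brought Jak1 to 0.06 (adjusted p = 0.214) and turned Il6st to -0.19 (adjusted p = 0.000274).

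Ordered over the 10 RNA-seq groups, of which the hairpin groups come from another library type, 5 members were highest at 96 h and Lifr was highest in parental mESCs. Lif spanned the widest range, 76.5-fold from the NPC mean to the 96 h mean, and Jak1 the narrowest, 2.76-fold. The group means of Lif fell from 23.3 TPM at 96 h through 17.4 TPM in the hairpin line with dTAG-13, 12.3 TPM in its DMSO and 12.2 TPM with Dox to between 6.98 and 8.21 TPM in the remaining tagged groups, 2.31 TPM in parental mESCs and 0.305 TPM in NPCs. Neighbours overlapped only within the pair of 12.3 and 12.2 TPM and among the tagged groups up to 24 h. For Stat3 the top pair overlapped, at 81.6 TPM at 96 h and 78.6 TPM in parental mESCs. For Socs3 a single pair overlapped, the hairpin line in DMSO and in dTAG-13, whereas the Il6st groups from the hairpin line in dTAG-13 (27.3 TPM) down to the tagged line in DMSO (22.5 TPM) each overlapped the next.

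Across the 15 time course libraries, which share 5 groups, Il6st ran closest to Lif (Pearson r of log2(TPM + 0.5) 0.966) and to Stat3 (0.955), while Lifr ran with none of the others above 0.622 (Socs3) and against Jak1 at -0.204. Among 11926 genes with a mean of at least 5 TPM, the pattern nearest to Lif was that of Gata2 (0.996) and Ilk (0.994), to Lifr that of Arpc5l (0.964) and D8Ertd738e (0.959), and to Il6st that of Tbc1d20 (0.994) and Cyp1b1 (0.993). For Jak1 it was Ube2h (0.997), for Stat3 Tmem115 (0.993) and Serinc1 (0.992), and for Socs3 Midn (0.991) and Smcr8 (0.990). The libraries of a group are not independent points, and the values describe these libraries.

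The other genes of the pathway were grouped by role. Their counts stand beside 42.9% of all genes called higher and 25.0% called lower at 24 h, and 42.9% called higher and 37.4% called lower at 96 h. Of the 9 further ligands 4 passed the filter in RNA-seq, and at 96 h 2 of them rose and none fell, with a median log2 difference of 0.60 against 0.05 over all genes. Clcf1, a cytokine of the IL-6 family, rose at 24 h from 1.01 to 3.39 TPM (1.35, adjusted p = 1.82e-06). Of 6 further receptor chains 5 were tested, and 4 rose at 96 h (median 1.56). Osmr, the oncostatin M receptor chain that pairs with gp130, went from 0.247 to 5.76 TPM. It passed the filter only through its 96 h libraries, so its rise followed from the filter and its test carries no weight. The count of 4 and the median of 1.56 include Osmr, and values without it were not computed. Il6ra, the IL-6 receptor chain, rose from 1.34 to 6.67 TPM (1.97, adjusted p = 2.60e-07).

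The 3 other Janus kinases all rose at 24 h and at 96 h (medians 0.65 and 1.01). Jak2 went from 6.14 TPM in DMSO to 48.1 TPM at 96 h (2.87, adjusted p = 2.73e-13), and Jak3 from 8.52 to 17.6 TPM (1.01, adjusted p = 1.08e-08). Of the 6 other STAT genes 4 rose and 1 fell at 24 h, and 5 rose and 1 fell at 96 h (medians 0.84 and 0.93). Stat2, a factor of the interferon response, rose at 24 h from 13 to 48.9 TPM (1.87, adjusted p = 7.39e-11), and Stat4 fell at 96 h from 7.63 to 0.730 TPM (-2.73, adjusted p = 9.54e-12).

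Of 4 adaptors 1 rose and 3 fell at 24 h, and 3 rose at 96 h, led by Ptpn11, which encodes the phosphatase SHP2 (53.9 to 114 TPM, 1.08, adjusted p = 1.31e-12), whereas Gab1 had fallen at 24 h (-0.37, adjusted p = 2.10e-07). Of 14 inhibitors other than Socs3, 5 rose and 4 fell at 24 h, and 9 rose and 3 fell at 96 h (medians 0.07 and 0.38). Socs2, which acts on growth hormone signalling, fell from 72.0 TPM in DMSO to 36.1 TPM at 24 h and 6.19 TPM at 96 h (-3.44 at 96 h, adjusted p = 6.72e-15), while Socs5 rose from 5.77 to 17.7 TPM (1.54, adjusted p = 2.32e-10). The median over all genes tested was 0.13 at 24 h and 0.05 at 96 h.

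Most targets of LIF-STAT3 in mESCs were below DMSO at 24 h, when Socs3 mRNA was lower, and at 96 h, when it was higher. Of 10 such genes 9 were tested, and Pramel7, at 0.320 TPM in DMSO, was not. At 24 h 6 fell and none rose (median -0.69), and at 96 h 7 fell and 1 rose (median -1.59), where 25.0% and 37.4% of all genes were called lower. Against 24 h, 4 rose and 3 fell at 96 h, where 37.4% of all genes were called higher. The median of that comparison was -0.07 for the targets and -0.07 over all genes. Klf4, a pluripotency factor, fell from 44.1 to 11.6 TPM at 24 h (-1.89, adjusted p = 2.42e-12), Gbx2 from 59.0 to 6.35 TPM (-3.12, adjusted p = 3.33e-12) and Myc from 124.7 to 20.2 TPM (-2.60, adjusted p = 1.77e-12). Tfcp2l1 did not pass at 24 h (-0.10, adjusted p = 0.0996) and fell at 96 h from 40.9 to 11.3 TPM (-1.82, adjusted p = 4.01e-13). Klf5, Pim1 and Bcl3 fell at both times, Pim3 did not pass at either, and Junb, an AP-1 subunit, was the gene that rose at 96 h, from 49.6 to 133.9 TPM (1.42, adjusted p = 5.91e-13).

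Several of these targets rose beside Socs3 in nascent RNA at 2 h. Of the 9 tested, 5 rose and none fell at 2 h (median 0.50 against -0.05 over all genes, with 1.58% of genes called higher), 2 rose and none fell at 6 h, and 1 rose and 4 fell at 24 h (median -0.27 against 0.21, with 32.3% of genes called higher and 5.59% lower). The risers at 2 h were Junb (1.19, adjusted p = 0.0148), Gbx2 (1.18, adjusted p = 0.0104), Myc (0.93, adjusted p = 0.0313), Bcl3 (0.64, adjusted p = 0.00361) and Pim1 (0.50, adjusted p = 0.0490), named here after their values were seen. In mRNA at 2 h 1 of the 9 tested rose and 5 fell, with a median of -0.26 against -0.02 over all genes. There 1478 of 17922 genes were called higher and 1258 lower. The mRNA of Gbx2, Myc and Pim1 was below DMSO at 2 h (Gbx2 -0.84, adjusted p = 1.50e-05). At 6 h 2 targets rose and 5 fell in mRNA, where 3296 genes were called higher and 2783 lower. The list was written with results of these data known.

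The starts of the members differed in their ChIP–seq peaks. Within 1 kb of the start H3K27Ac, a mark of active promoters and enhancers, gave a peak at Il6st, Jak1, Stat3 and Socs3 in all 3 DMSO libraries and at Lif and Lifr in none, where 47.6% to 49.5% of 22028 protein-coding starts had one. MED23, a Mediator subunit, gave peaks at the same 4 starts in both DMSO libraries, and in 1 of them at Lifr (59.9% and 60.2% of all starts). After 24 h of dTAG-13 MED23 peaks within 1 kb were left at Stat3 and Socs3, in both libraries, where 16.8% and 18.7% of all starts had one. With a −log10 q-value of at least 5 asked for, the Stat3 peaks were left (2 of 12 gene and library pairs in place of 4). Within 2.5 kb Il6st also had MED23 peaks in both dTAG-13 libraries (6 of 12), at 5.39 and 4.75 against 10.8 and 9.70 in DMSO. H3K9me3, the repressive mark set through TRIM28, gave no peak at any of the 6 starts in any of the 6 libraries (0.440% to 3.76% of all starts).

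Socs3 had the strongest MED23 peaks of the members, with fold enrichments of 21.1 and 19.4 in DMSO, against 4.23 and 3.58 after dTAG-13. At Stat3 MED23 stood at 15.8 and 14.7 in DMSO and at 3.84 in both dTAG-13 libraries. RNAPII was at 11.8 and 12.5 at Socs3 in DMSO, against 5.56 and 6.64 after dTAG-13, and at 8.18 and 7.96 at Jak1 against 4.56 and 4.64. At Stat3 it was at 8.89 and 7.84 in DMSO, and 1 dTAG-13 library had a peak (3.50). At Il6st the groups overlapped, at 9.99 and 7.37 in DMSO and 7.59 and 5.54 in dTAG-13. Of all starts, 40.8% and 41% had an RNAPII peak within 1 kb in DMSO, against 23% and 21.1% after dTAG-13. The RNAPII libraries held 19853 and 19194 peaks in DMSO, against 8182 and 7689 after dTAG-13.

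H3K27Ac did not separate the groups. At Socs3 it was at 8.82, 7.20 and 9.65 in DMSO and at 2.66, 8.69 and 2.16 after dTAG-13, and at Stat3 at 10.5, 10.4 and 8.67 against 5.02, 11.6 and 4.15. The second dTAG-13 library was high in both cases and also had the most peaks of the 3, 117348 against 30259 and 45662. Peaks were called in each library by itself, fold enrichment is relative to that library, MED23 libraries held 58925 and 63045 peaks in DMSO but 14551 and 15335 after dTAG-13, and an exact permutation test of such single values cannot reach p below 0.05 with 2 or 3 libraries a group, so none was run. The part of library quality in these values was not tested.

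**Figure D5:**
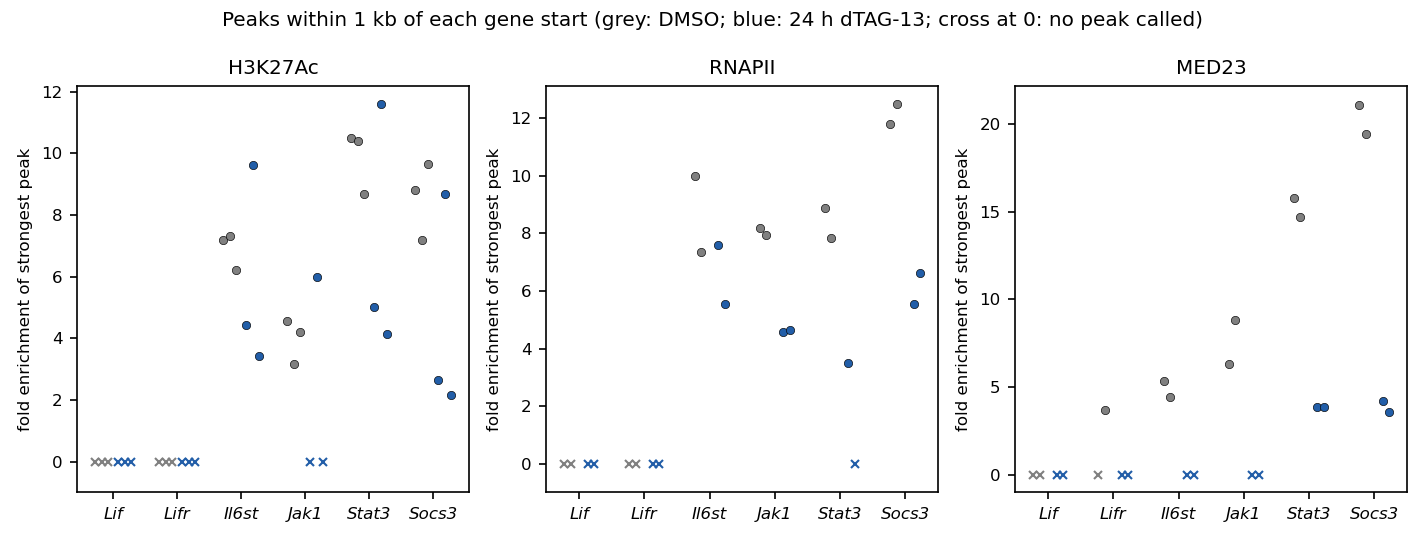
Fold enrichment of the strongest peak within 1 kb of each member's start in each library of H3K27Ac, RNAPII and MED23, for DMSO (grey) and 24 h dTAG-13 (blue), with crosses at 0 where no peak was called. MED23 at Socs3 and Stat3 drops from 14.7 to 21.1 in DMSO to 3.58 to 4.23 after dTAG-13.

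The Lifr start in the deposited tables lies 38958 bp upstream of the nearer RefSeq start. RefSeq starts were looked at after seeing the data. At the RefSeq starts of Lifr MED23 stood at 7.85 and 9.61, RNAPII at 4.18 and 4.00, and H3K27Ac at 1.94, 2.36 and 3.03 in DMSO. After dTAG-13 a single library, the second of H3K27Ac, had a peak there (2.16).

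Of the members, Socs3 alone lies beside a region in the published list of mESC super-enhancers that the study used, which begins just upstream of its start. MED23 peaks covered 62.3% of that region in both DMSO libraries, against 9.82% and 5.18% of it after dTAG-13, with top fold enrichments of 14.6 and 16.7 against 3.83 and 4.40. H3K27Ac peaks covered 74.9%, 93.8% and 72.5% of it in the DMSO libraries, against 25.6%, 62.4% and 20.6% in the dTAG-13 libraries. These coverage ranges did not overlap, but the top H3K27Ac fold enrichments did, at 6.7, 12.5 and 8.76 against 8.75, 12.5 and 3.28. Replicates 1 and 3 of dTAG-13, with the lowest coverage, also had the fewest H3K27Ac peaks genome-wide (30259 and 45662). Coverage of the other listed super-enhancers was not measured. Whether the MED23 and H3K27Ac changes were particular to this region was therefore not tested. No RNAPII or H3K9me3 peak lay in it. The fall in MED23 peaks at and beside Socs3 at 24 h stood beside a difference in new Socs3 RNA that did not pass (0.33, adjusted p = 0.0616) and lower Socs3 mRNA (-0.20, adjusted p = 0.000237).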

How the data were processed

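Gene values were used as deposited by the authors. RNA-seq reads were trimmed with cutadapt 2.4, mapped to mm10 with STAR 2.7.5a and summarised by the authors with StringTie 2.0.6 as TPM and coverage, a signal per base from which relative depth was taken here. TT-SLAM-seq values were deposited as FPKM of reads with T-to-C conversions. Their steps gave whole reads (tolerance 0.1) for 100% of low values when FPKM was taken per kb of genomic span, introns included, so FPKM is not per kb of exon and was not compared between genes. Peaks were called by the authors with MACS2 in each library, and the fold enrichment (a ratio) and −log10 q-value of each peak were used as deposited.

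Groups came from the sample titles. Values were tested with limma 3.58.1 in R 4.3.3 on log2(value + 0.5), with genes of at least 0.5 FPKM or 1 TPM in at least 3 libraries and Benjamini-Hochberg adjustment over all genes tested. Each fit pooled the spread of its libraries: 12 for TT-SLAM-seq, 15 for the time course, 9 for the hairpin line, 9 for the cell lines and 12 for the difference between lines. DMSO libraries are shared between time points, and those of the tagged line also serve the cell line fit. Read numbers recovered from FPKM were fitted with limma's voom as an alternative. The scripts were tested on simulated data.

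The members and lists were chosen with earlier results of these data known. Named genes are the members, the 2 list genes with the largest log2 difference among those called at 24 or 96 h, the targets, the 2 genes nearest to each member by Pearson r, and Trim28; some genes that this rule names are not reported here. Alternatives were other pseudocounts (0.1 and 1), other filters, centring each library on its median, a replicate block, leaving out each library, and for peaks a window of 2.5 kb, a −log10 q-value of at least 5 and, chosen after seeing the data, RefSeq starts. Repeated gene identifiers (6 to 13 per table) were summed. Per the GENCODE vM21 annotation Stat3 overlaps Stat5a on the opposite strand by 72 bp, and Jak1 overlaps Raver2 by 4 bp. Other samples of the series were not analysed here.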

Additional observations from a re-analysis of the deposited data

Results flagged for a closer look

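2 kinds of difference between effects passed a test of the difference itself. The first set the 24 h effect of dTAG-13 in the hairpin line against that in the time course, on the log2 scale. It was called for 3 of 6 members, a share near the 51.4% of 17653 genes called. The hairpin line minus the time course was 0.50 for Lif, whose mRNA rose from 12.3 to 17.4 TPM in the hairpin line and stood at 7.07 and 6.98 TPM in the time course. It was 0.44 for Lifr, which went from 16.9 to 16.4 TPM in the hairpin line and from 23.0 to 16.3 TPM in the time course. It was 0.24 for Stat3, which went from 31.8 to 34.6 TPM and from 47.5 to 43.6 TPM.

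The second set the 96 h effect against the 24 h effect, which share their DMSO libraries, and was called for all 6 members, where 79.4% of 17922 genes were called. The 96 h effect exceeded the 24 h effect by 1.67 for Lif, 1.36 for Il6st, 0.92 for Socs3, 0.90 for Stat3, 0.62 for Jak1 and 0.48 for Lifr. Stat3, Socs3 and Lifr were below DMSO at 24 h, and the first 2 were above it at 96 h. Groups of 3 libraries are too small for the test of single outlying samples.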

How the results depend on the processing

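Other pseudocounts (0.1 and 1) changed no call of a member and no direction. Centring each library on its median kept 63 of 84 results, the filter on a mean of at least 5 kept all 61, dropping the filter 74 of 78, the fit of recovered reads 13 of 18, and leaving out 1 library 479 of 540. Members called in TT-SLAM-seq became 2 at 2 h and 1 at 6 h with centring, 3 at 2 h with recovered reads, and 1 at 6 h and 0 at 24 h with a mean of at least 5, where fewer members could be tested. Members called in RNA-seq became 1 at 2 h without the filter and 1 at 6 h with centring. MED23 peaks after dTAG-13 became 2 with a −log10 q-value of at least 5 and 6 within 2.5 kb. Leaving out each library in turn gave 0 to 2 members at 6 h and 1 to 2 at 24 h in TT-SLAM-seq, and 1 to 2 at 2 h and 1 to 2 at 6 h in RNA-seq. Apart from centring and the other construction named, the cause of these changes was not tested.

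Directions turned with centring for Lif (-0.0126) and Stat3 (-0.0272) at 24 h in TT-SLAM-seq, for Lifr at 2 h (-0.0007) and Il6st at 24 h (-0.0446) in RNA-seq, for Stat3 in the hairpin line (-0.0436 with dTAG-13, and 0.0580 when Dox was added), for Il6st in NPCs (-0.19), and for Il6st (0.10) and Jak1 (0.0316) in the difference between lines. Leaving out 1 library gave ranges across 0 for uncalled values: Il6st at 2 h in TT-SLAM-seq (-0.0402 to 0.183), Lifr at 2 h (-0.0597 to 0.0638), 6 h (-0.0633 to 0.0270) and 96 h (-0.0170 to 0.0128), Jak1 at 6 h (-0.0528 to 0.0054) and Lif at 24 h (-0.0739 to 0.0668) in RNA-seq, Lifr with dTAG-13 (-0.0792 to 0.0151), Lif with Dox and dTAG-13 against DMSO (-0.0592 to 0.0307) and Stat3 with Dox (-0.0450 to 0.0249) in the hairpin line, and Il6st in the difference between lines (-0.119 to 0.0527).

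Deviations of same-numbered libraries were weakly correlated (-0.205 to 0.177). With 3 libraries per group, such values cannot tell whether same-numbered libraries shared a culture or a batch. With the replicate block 80 of 84 results were kept. Lif at 24 h in TT-SLAM-seq (adjusted p = 0.0684) and Lifr when Dox was added (adjusted p = 0.0613) were no longer called, while Socs3 at 24 h in TT-SLAM-seq (adjusted p = 0.0343) and Lif at 6 h in RNA-seq (adjusted p = 0.0383) were.

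The share of called genes that were higher moved with centring from 44.5% to 67.6%, 86.0% to 68.2% and 85.2% to 45.2% at 2, 6 and 24 h in TT-SLAM-seq, and from 54.2% to 30.0%, 63.1% to 37.0% and 53.4% to 40.9% at 6, 24 and 96 h in RNA-seq. It moved from 76.4% to 46.7% with dTAG-13, 37.4% to 52.6% when Dox was added and 80.0% to 46.2% for both against DMSO in the hairpin line, and from 37.9% to 60.8% in parental mESCs and 55.6% to 41.4% in NPCs. With recovered reads it was 66.4%, 65.1% and 50.5% at 2, 6 and 24 h. Depth limits Lif in TT-SLAM-seq most, at 96 to 361 reads.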

Other observations

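H3K9me3 peaks near the members were few and differed between libraries. Within 50 kb of the start, Jak1 had 1 or 2 peaks in each of the 3 DMSO libraries and 0, 1 and 3 after dTAG-13. Socs3 had 1, 1 and 0 in DMSO and none after dTAG-13, with the nearest peak at 415 kb or more. Lifr had none in any library. The H3K9me3 libraries after dTAG-13 held 11474, 105690 and 147611 peaks.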
